A study of Homo sapiens with 8 samples.

Results

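The genes described here responded to temozolomide (TMZ) in the same direction and by similar size in LN229, a human glioblastoma cell line, in each of its 2 stable clones studied. They were found by comparing the 4 TMZ libraries with the 4 untreated libraries, with the clone as covariate, and then each clone on its own. A gene was counted as moving alike when its Benjamini-Hochberg adjusted p was under 0.05 in each clone with the same sign. It was counted as similar in size when, in addition, it changed at least 2-fold in each clone and the 95% interval of the difference between the 2 log2 fold changes lay within -0.5 to 0.5, which is a ratio of at most 1.41. By this rule 31 genes, 16 higher and 15 lower after TMZ, were found among 14201 tested genes. Since these fits chose the genes, the p-values printed for them describe them and are no separate evidence.

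Clone Surv-GFP (D6) carries a plasmid for wild-type Survivin fused to eGFP, with a functional nuclear export signal (NES), and its Survivin is predominantly cytoplasmic. Clone SurvNESmut-GFP (L2) carries the same fusion with a mutated NES, and its Survivin is predominantly nuclear. Both clones express the fusion beside endogenous Survivin under G418 selection. The groups were untreated Surv-GFP, Surv-GFP with 50 µM TMZ for 48 h, untreated SurvNESmut-GFP, and SurvNESmut-GFP with the same TMZ exposure, with 2 libraries each, lettered a and b. Each form of Survivin is represented by 1 clone, so clone and NES status cannot be told apart, and parental cells were not analysed here. The study describes independent biological replicates, each run in technical duplicate. The labels do not tell which of these the letters mark, so p-values measure only the spread between these libraries, which may be technical.

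TMZ is a methylating drug, and the methylated guanine it leaves in DNA is mispaired during replication. In cells with mismatch repair and without MGMT, the enzyme that removes this methyl group, the repair of such mispairs leads to DNA breaks, to activation of p53 and to arrest in G2. Genes for mitosis are largely transcribed in G2 and mitosis and are silenced when cells leave the cycle, for many of them through the DREAM and MuvB complexes at their promoters. Amino acid shortage and other stresses act through another route, in which the kinase-controlled factor ATF4 switches on genes for the synthesis and uptake of serine, glycine, asparagine and cystine and for loading tRNAs.

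Counts on genes ranged from 15826923 to 18861603 per library, and reads on no gene made up 11.2% to 14.3%, the highest share being that of SurvNESmut-GFP TMZ library a. The 2 TMZ libraries of SurvNESmut-GFP were the least alike for the genes described here. The largest gap between letters lay in this group for 20 of the 31 genes, and the median gap was 0.18 on the log2 scale there against 0.05 in untreated SurvNESmut-GFP. The glial and mesenchymal markers VIM, NES, CD44 and SOX10 had at least 524 CPM (counts scaled to a common library size) in every library, whereas GFAP, SOX9, PROM1 and AQP4 were below 1 CPM in every library. BIRC5, which encodes Survivin, did not move alike. It had 1152 and 1113 CPM in untreated and 1938 and 2029 CPM in TMZ-exposed Surv-GFP cells, and 407 and 414 CPM in untreated and 262 and 253 CPM in TMZ-exposed SurvNESmut-GFP cells, and in these counts transgene and endogenous gene cannot be told apart.

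With clone as covariate, 2839 genes (20% of those tested) were higher and 2777 (19.6%) lower after TMZ by edgeR's quasi-likelihood test. In each clone on its own, 1665 genes (11.7%) were higher in both and 1693 (11.9%) lower in both, and 555 genes (3.91%) were called in opposite directions. Where a pair of effects is given below without a unit, they are the log2 fold changes of TMZ over untreated in Surv-GFP and in SurvNESmut-GFP, in this order. Of the 3358 genes that moved alike, 314 changed at least 2-fold in each clone, 184 of them upward and 130 downward. Among these 314, the change was larger in Surv-GFP for 230 and larger in SurvNESmut-GFP for 84, with median absolute log2 fold changes of 1.89 and 1.49. The 31 genes of similar size thus made up 0.113% of the tested genes in the upward and 0.106% in the downward direction. They had a median absolute change of 1.34 in the Surv-GFP and 1.36 in the SurvNESmut-GFP clone on the log2 scale, with folds between 2.09 and 3.60 over both clones. In 29 of the 31, all 4 TMZ libraries lay beyond all 4 untreated libraries, against 10.3% of tested genes with all 4 TMZ libraries above and 8.49% with all 4 below. This count follows largely from the rule and supports nothing further.

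**Figure D1:**
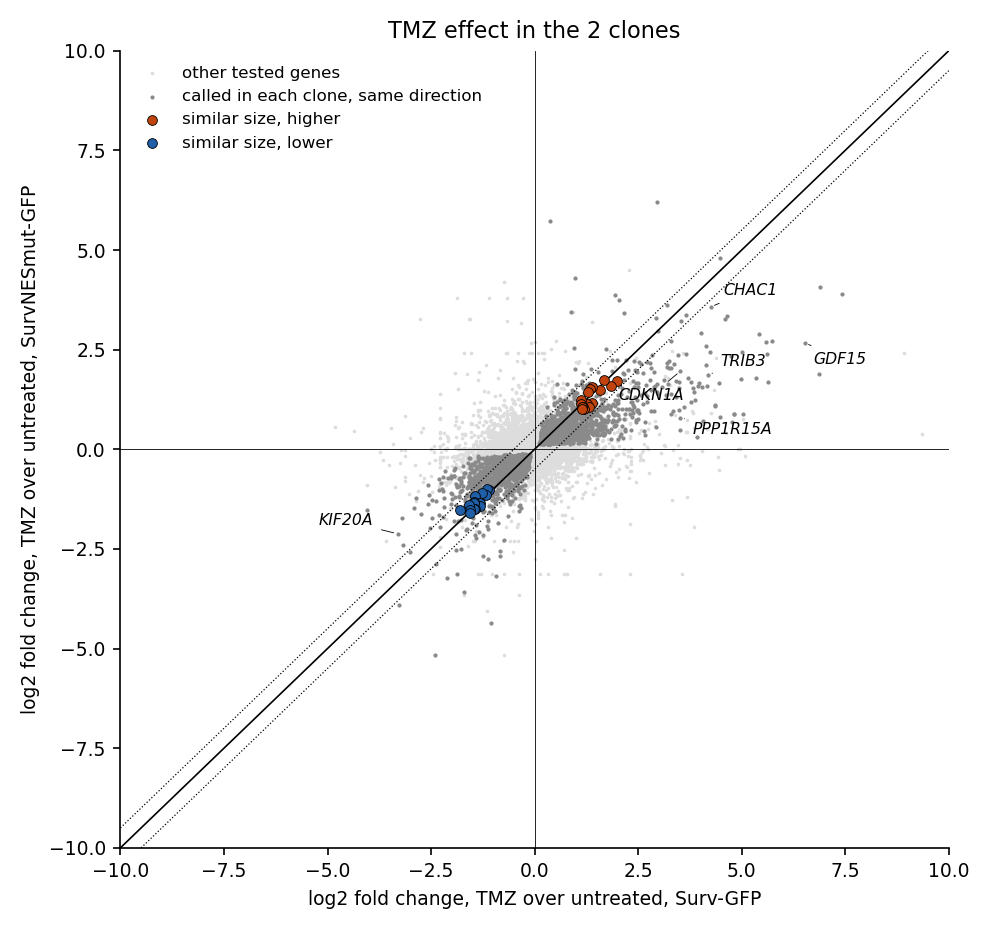
Log2 fold change of TMZ over untreated in Surv-GFP (x axis) and in SurvNESmut-GFP (y axis) for the 14201 tested genes, with equal change on the solid line and a difference of 0.5 on the dotted lines. The 31 genes of similar size lie near the solid line, and most genes with larger rises, such as GDF15, TRIB3 and PPP1R15A, lie below it.

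Among the 16 genes that rose by similar size, 8 encode enzymes or transporters of amino acid, one-carbon and linked mitochondrial metabolism, a grouping made after their values were seen. MTHFD2, the mitochondrial folate enzyme that oxidizes the one-carbon unit taken from serine, rose most. In Surv-GFP cells MTHFD2 had 101 and 109 CPM without and 428 and 401 CPM with TMZ, and in SurvNESmut-GFP cells 159 and 157 CPM without and 547 and 488 CPM with TMZ. The TMZ libraries of each clone lay above all untreated libraries of both clones. The log2 fold change of MTHFD2 was 1.85 ± 0.07 (SE; adjusted p = 5.45e-06) over both clones, being 1.98 for Surv-GFP and 1.71 for SurvNESmut-GFP.

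PSAT1 and PSPH catalyse the last steps of serine synthesis from a glycolytic intermediate. In Surv-GFP cells PSAT1 had 62.4 and 66.7 CPM without and 172 and 163 CPM with TMZ, and in SurvNESmut-GFP cells 86.1 and 88.5 CPM without and 274 and 237 CPM with TMZ. The groups with and without TMZ did not overlap, and the log2 fold change was 1.47 ± 0.06 (SE) over both clones. PSPH had 43.2 and 43 CPM in untreated and 111 and 114 CPM in TMZ-exposed Surv-GFP cells, and 34.7 and 35.1 CPM in untreated and 79.6 and 76.5 CPM in TMZ-exposed SurvNESmut-GFP cells. It rose by 1.39 on the log2 scale in the Surv-GFP clone and by 1.16 in the other, a difference (SurvNESmut-GFP minus Surv-GFP) of -0.23 (95% interval -0.39 to -0.06). The libraries with TMZ were again above all those without. PHGDH, which catalyses the first step of this pathway and belonged to the stress list rather than to the 31, was called in each clone at a smaller size, with 0.69 and 0.99. SHMT2, the mitochondrial enzyme that passes the one-carbon unit of serine to folate and so feeds MTHFD2, passed the 2-fold limit in each clone with 1.46 and 1.02. The interval of its difference, -0.60 to -0.28, crossed the margin.

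CBS joins serine to homocysteine on the way to cysteine. In Surv-GFP cells CBS had 33.4 and 30.6 CPM without and 117 and 115 CPM with TMZ, and in SurvNESmut-GFP cells 40.7 and 40.5 CPM without and 129 and 114 CPM with TMZ. Its log2 fold changes of 1.86 and 1.58 differed by -0.28 (95% interval -0.48 to -0.08), close to the margin of -0.5. SLC7A11, the cystine importer, had 90.2 and 102 CPM in untreated and 229 and 210.2 CPM in TMZ-exposed Surv-GFP cells, and 129 and 135 CPM in untreated and 293 and 237 CPM in TMZ-exposed SurvNESmut-GFP cells. Its rise was 1.10 ± 0.08 (SE) over both clones, and the SurvNESmut-GFP value of 1.004 stood at the 2-fold limit. In both genes all TMZ libraries were above all untreated ones.

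GPT2, a mitochondrial transaminase that makes alanine, had 62.5 and 61.8 CPM in untreated and 186 and 183 CPM in TMZ-exposed Surv-GFP cells, and 49 and 48.1 CPM in untreated and 148 and 124 CPM in TMZ-exposed SurvNESmut-GFP cells. PCK2, the mitochondrial enzyme that forms phosphoenolpyruvate, had 30.8 and 29 CPM in untreated and 76.1 and 75 CPM in TMZ-exposed Surv-GFP cells, and 29.4 and 27.3 CPM in untreated and 86.6 and 76.5 CPM in TMZ-exposed SurvNESmut-GFP cells. SLC6A9, a glycine transporter, had 35.2 and 35.3 CPM in untreated and 80.9 and 90.9 CPM in TMZ-exposed Surv-GFP cells, and 36.7 and 36.2 CPM in untreated and 103 and 95.9 CPM in TMZ-exposed SurvNESmut-GFP cells. In these 3 genes no TMZ library reached down to an untreated one, and GPT2 was lower in SurvNESmut-GFP than in Surv-GFP both with and without TMZ. The differences between clones were -0.08, 0.19 and 0.16, each with an interval that included 0.

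The other genes that rose by similar size had other roles. DGKA (diacylglycerol kinase alpha), PIDD1 (a death-domain protein that activates caspase-2) and TSPAN11 (a tetraspanin) rose by 1.18 ± 0.06, 1.13 ± 0.05 and 1.19 ± 0.07 (SE). DGKA had 41.1 and 48.1 CPM in untreated and 99.7 and 95.4 CPM in TMZ-exposed Surv-GFP cells, and 16.4 and 17.1 CPM in untreated and 39.8 and 39.4 CPM in TMZ-exposed SurvNESmut-GFP cells. Here the clones differed before TMZ, the untreated SurvNESmut-GFP level being 0.376 of that in Surv-GFP, so that TMZ-exposed SurvNESmut-GFP stayed below untreated Surv-GFP although the folds were alike. PIDD1 had 48.9 and 50.5 CPM in untreated and 106 and 111 CPM in TMZ-exposed Surv-GFP cells, and 64.7 and 71.4 CPM in untreated and 149.7 and 148 CPM in TMZ-exposed SurvNESmut-GFP cells. The log2 fold change of PIDD1 was 1.13 in each clone, with an interval of the difference of -0.17 to 0.17. MAPKBP1, a scaffold protein of JNK signalling, rose by 1.71 ± 0.05 (SE), the third largest rise after MTHFD2 and CBS. UHRF1BP1, the zinc finger gene ZNF813, PAWR (the pro-apoptotic protein PAR-4) and the antisense RNA KCTD21-AS1 rose by between 2.11-fold and 2.31-fold.

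**Figure D2:**
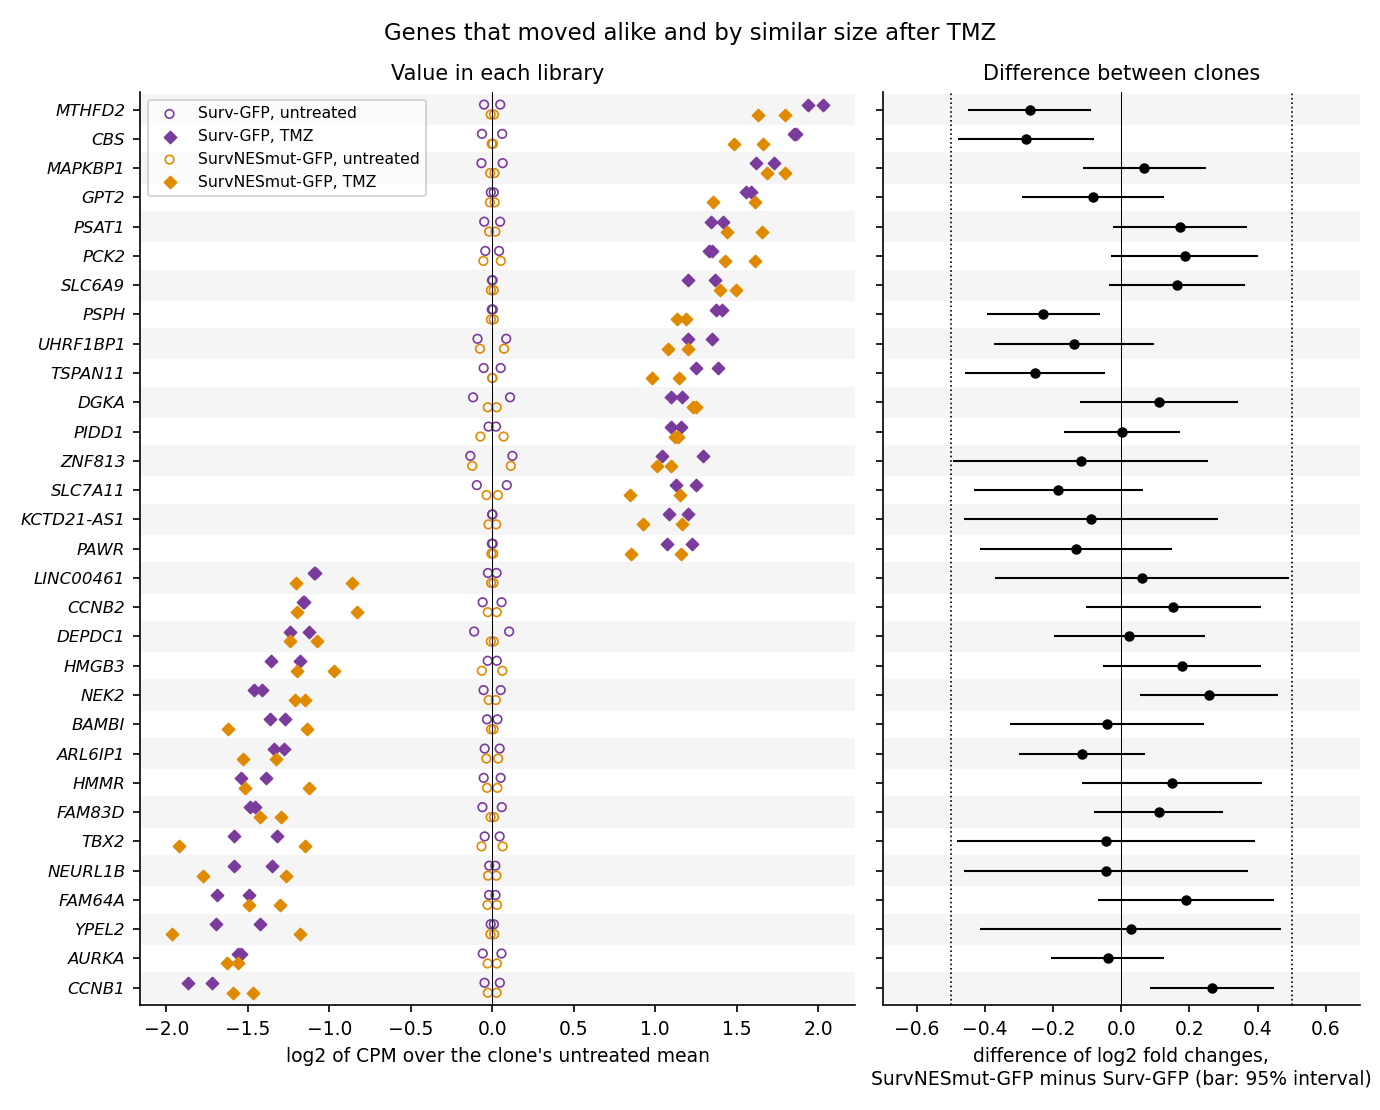
Left, log2 of the CPM of each library over the mean of the 2 untreated libraries of the same clone, for the 31 genes; open circles are untreated and filled diamonds TMZ libraries. Right, the difference of the 2 log2 fold changes (SurvNESmut-GFP minus Surv-GFP) with its 95% interval and the margins of -0.5 and 0.5; the TMZ libraries of both clones lie on the same side of 0 for each gene, and TBX2 and YPEL2 show the widest gaps between letters.

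Of the 15 genes that fell by similar size, 7 were in the list for G2 and mitosis. CCNB1, the cyclin that drives entry into mitosis with CDK1, fell most. In Surv-GFP cells CCNB1 had 174 and 186 CPM without and 54.5 and 49.4 CPM with TMZ, and in SurvNESmut-GFP cells 243 and 252 CPM without and 89.6 and 82.4 CPM with TMZ. The 4 TMZ libraries lay below the 4 untreated ones, and the log2 fold change was -1.66 ± 0.07 (SE; adjusted p = 6.87e-06), a 3.16-fold fall. CCNB2, the second B-type cyclin, had 73.6 and 79.8 CPM in untreated and 34.2 and 34.4 CPM in TMZ-exposed Surv-GFP cells, and 121 and 116 CPM in untreated and 51.7 and 66.6 CPM in TMZ-exposed SurvNESmut-GFP cells. It fell by a smaller factor, 2.11-fold, and the letters of TMZ-exposed SurvNESmut-GFP stood further apart than those of the other groups.

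AURKA, the kinase of centrosome maturation and spindle assembly, had 129 and 140.1 CPM in untreated and 46.2 and 45.7 CPM in TMZ-exposed Surv-GFP cells, and 328 and 341 CPM in untreated and 108 and 113 CPM in TMZ-exposed SurvNESmut-GFP cells. Untreated SurvNESmut-GFP held 2.48 times the level of untreated Surv-GFP, the widest upward gap between the untreated clones among the 31, and yet the log2 fold changes of -1.55 and -1.59 were nearly equal, with an interval of the difference of -0.21 to 0.13. All 4 TMZ libraries lay below all 4 untreated ones. NEK2, a centrosome kinase, fell from 54 and 58.1 to 21.1 and 20.3 CPM in Surv-GFP and from 72.5 and 70.3 to 30.9 and 32.2 CPM in SurvNESmut-GFP. HMMR, a protein of the spindle, fell from 119.5 and 128 to 47.4 and 42.6 CPM and from 90.7 and 94.7 to 32.4 and 42.5 CPM. In both genes the libraries with and without TMZ did not overlap.

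FAM64A, FAM83D (which binds the spindle) and DEPDC1 are further genes expressed late in the cycle, and their log2 fold changes were -1.49 ± 0.08, -1.41 ± 0.05 and -1.17 ± 0.06 (SE). DEPDC1 had 68.8 and 79.9 CPM in untreated and 34.1 and 31.5 CPM in TMZ-exposed Surv-GFP cells, and 136 and 134 CPM in untreated and 57.2 and 63.9 CPM in TMZ-exposed SurvNESmut-GFP cells. Its 2 clones differed 1.82-fold before TMZ and changed by -1.18 and -1.16, a difference of 0.02 (95% interval -0.20 to 0.24). ARL6IP1, a membrane protein of the endoplasmic reticulum, and HMGB3, a chromatin protein, fell by 2.58-fold and 2.25-fold. ARL6IP1 had 327 and 349 CPM in untreated and 134 and 139 CPM in TMZ-exposed Surv-GFP cells, and 422 and 444 CPM in untreated and 150.2 and 172 CPM in TMZ-exposed SurvNESmut-GFP cells. Since these are bulk libraries, fewer cells in G2 or mitosis and less RNA per cell cannot be told apart for any of these genes.

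The remaining 5 genes that fell are not known chiefly for the cell cycle. BAMBI, a pseudoreceptor that dampens TGF-beta signalling, had 294 and 281 CPM in untreated and 112 and 119 CPM in TMZ-exposed Surv-GFP cells, and 226 and 224 CPM in untreated and 73.3 and 103 CPM in TMZ-exposed SurvNESmut-GFP cells. TBX2, a transcriptional repressor, had a log2 fold change of -1.47 ± 0.15 (SE), and its TMZ libraries in SurvNESmut-GFP read 46.9 and 80.2 CPM against 50.2 and 60.2 CPM in Surv-GFP. YPEL2 and NEURL1B, a ubiquitin ligase, showed the same pattern with 4.21 and 7.25 and 4.38 and 6.24 CPM in the TMZ libraries a and b of SurvNESmut-GFP. Their similar mean effects thus rest on a pair of libraries that differed from each other more than those of the other groups. LINC00461 fell by 2.09-fold and had 12.4 CPM at most.

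**Figure D3:**
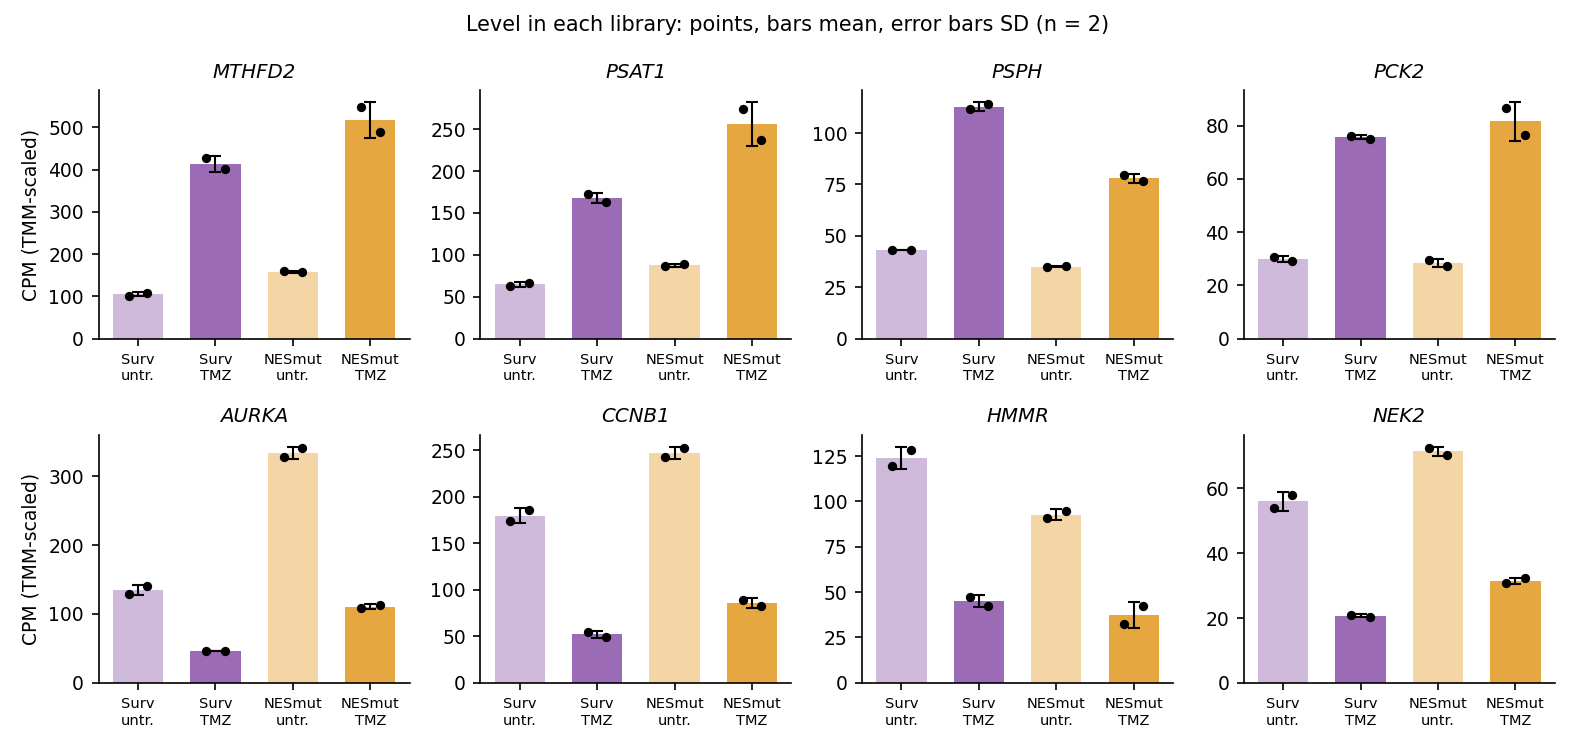
TMM-scaled CPM of 4 genes that rose (upper row) and 4 that fell (lower row) by similar size, in untreated and TMZ-exposed Surv-GFP and SurvNESmut-GFP cells. Points are libraries, bars are means and error bars are SD (n = 2); the starting level of AURKA is 2.48 times higher in SurvNESmut-GFP, while its fall is alike.

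The promoters of these genes were searched for short motifs because the members moved together. RefSeq sequences (GRCh38.p14) from 250 bases before to 50 bases after the annotated start were held for 24 of the 31 genes. The letters CCAAT (bound by NF-Y), TTTGAA (a cell cycle homology region, CHR, bound by the MuvB complexes) and TGATGNAA (the amino acid response element bound by ATF4 dimers) were searched on both strands. Of the 11 promoters of genes that fell, 8 (72.7%) held CCAAT and 5 (45.5%) held TTTGAA, against 36.8% and 9.98% of the 10454 promoters whose symbol matched a tested gene and 35.7% and 15.4% of all 27305 promoters. Of the 13 promoters of genes that rose, 5 (38.5%) held CCAAT, 2 (15.4%) held TTTGAA and none held TGATGNAA, which was in 1.71% of the promoters of tested genes and in 3.67% of all promoters. No test was made, a match is not a bound site, and a missing match says only that these letters are not in this window. A match was counted wherever it lay in the window.
The 150 bases before the start are shown for 4 genes that fell and 2 that rose, because the spacing of the motifs can be read from them. The 4 were picked among the cyclin and mitotic genes for their motif matches, and the 2 are serine and folate genes. They do not stand for all promoters searched. ARL6IP1 and LINC00461, which also fell, held none of the motifs. Capitals mark CCAAT or TTTGAA on either strand, read along the strand of the gene. In CCNB2, CCAAT began 120, 87 and 54 bases and TTTGAA 29 bases before the start. In DEPDC1 they began 52 and 27 bases before it, TTTGAA being on the other strand. In HMMR 2 adjoining copies of TTTGAA began 28 and 22 bases before it. In HMGB3 and NEURL1B, which also fell and are not shown, TTTGAA lay further out, 172 and 135 bases before the start. CCNB1 held CCAAT 87 and 55 bases before its start and no TTTGAA. The sequences lie at chr5:69167000-69167149 (plus strand), chr15:59104996-59105145 (plus strand), chr5:163460482-163460631 (plus strand), chr1:68497083-68497232 (minus strand), chr2:74198465-74198614 (plus strand) and chr9:78296975-78297124 (plus strand).
CCNB1: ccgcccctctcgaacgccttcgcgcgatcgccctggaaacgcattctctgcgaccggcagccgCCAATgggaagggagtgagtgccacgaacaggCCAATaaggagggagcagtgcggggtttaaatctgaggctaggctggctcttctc
CCNB2: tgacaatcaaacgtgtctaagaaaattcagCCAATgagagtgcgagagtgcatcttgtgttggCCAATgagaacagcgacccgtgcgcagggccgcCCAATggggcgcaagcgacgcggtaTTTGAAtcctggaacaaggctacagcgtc
HMMR: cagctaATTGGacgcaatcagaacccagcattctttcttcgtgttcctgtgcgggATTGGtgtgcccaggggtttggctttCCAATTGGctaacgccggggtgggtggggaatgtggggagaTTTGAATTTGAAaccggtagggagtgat
DEPDC1: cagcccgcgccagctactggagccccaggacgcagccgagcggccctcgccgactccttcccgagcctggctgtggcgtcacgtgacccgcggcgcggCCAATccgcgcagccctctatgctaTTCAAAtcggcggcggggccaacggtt
MTHFD2: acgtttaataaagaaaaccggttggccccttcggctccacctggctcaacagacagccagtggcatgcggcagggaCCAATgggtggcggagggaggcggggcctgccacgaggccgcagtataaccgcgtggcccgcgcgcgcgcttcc
PSAT1: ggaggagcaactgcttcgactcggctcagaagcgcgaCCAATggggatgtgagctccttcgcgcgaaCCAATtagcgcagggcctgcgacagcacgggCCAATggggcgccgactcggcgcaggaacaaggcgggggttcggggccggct

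The untreated levels of the 31 genes were not part of the rule. Untreated SurvNESmut-GFP was above untreated Surv-GFP in 21 genes and below it in 10, with ratios from 0.340 (YPEL2) to 2.48 (AURKA) and a median of 1.27. In 10 genes the untreated clones differed at least 1.5-fold. In those 10 the similar folds started from unlike levels. The same counts were not made for all tested genes, so these describe the 31 genes only.

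The list of 46 tested genes of the ATF4 integrated stress response showed how far the similar size extended. With clone as covariate 41 of them rose and 2 fell, against 20% and 19.6% of all tested genes. Of the 46, 40 (87%, against 11.7% of all tested genes) moved upward alike, but only 5 (MTHFD2, PSAT1, PCK2, PSPH and SLC7A11) by similar size. The list had a median log2 fold change of 1.40 for Surv-GFP and 0.92 for SurvNESmut-GFP, against 0.00 for all tested genes in each clone. Of the 40 genes, 33 rose more in Surv-GFP, and the difference itself was called for 36 of the 46 genes. How many of all tested genes had a called difference was not counted, so such counts, here and for the lists below, describe the lists only. A larger change in Surv-GFP was also found for 230 of the 314 genes that moved alike at least 2-fold in each clone. These counts are not matched, since only 20 of the 40 passed that 2-fold limit. The count was not made for all 3358 genes that moved alike, so those for the lists describe the lists only. TRIB3, a pseudokinase that restrains ATF4, had 40.6 and 38.8 CPM in untreated and 702 and 748 CPM in TMZ-exposed Surv-GFP cells, and 51.2 and 52.5 CPM in untreated and 192 and 187 CPM in TMZ-exposed SurvNESmut-GFP cells, which is 4.19 against 1.87 on the log2 scale. PPP1R15A, the phosphatase subunit that reverses the block on translation, rose by 3.52 and 0.79, and DDIT3, which encodes CHOP, by 3.23 and 1.64. The transcript of ATF4 itself rose by 0.85 and 0.52. ASNS (asparagine synthetase) rose by 2.46 and 1.95, with an interval of the difference of -0.71 to -0.32. CHAC1, which degrades glutathione, rose by 4.25 and 3.57 from untreated levels between 2.76 and 6.18 CPM, low ones at which the interval of the difference was wide (-1.09 to -0.27). The 11 tRNA synthetase genes of the list all rose alike, from 0.51 and 0.55 for EPRS to 1.83 and 1.01 for SARS.

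Of the 68 genes of G2 and mitosis, 63 fell and 1 rose with clone as covariate, against 19.6% and 20% of all tested genes. Of the 68, 62 (91.2%, against 11.9% of all tested genes) fell alike. The 7 of similar size were CCNB1, AURKA, FAM64A, HMMR, NEK2, DEPDC1 and CCNB2. The median of the list was -1.10 for Surv-GFP and -0.68 for SurvNESmut-GFP (log2), and 56 of the 63 genes that moved alike changed more in Surv-GFP, the difference being called for 50 of the 68. KIF20A, a kinesin of the central spindle, had 211 and 219 CPM in untreated and 21.7 and 21.9 CPM in TMZ-exposed Surv-GFP cells, and 294 and 284 CPM in untreated and 65.3 and 67.6 CPM in TMZ-exposed SurvNESmut-GFP cells, the widest difference in the list (1.18; 95% interval 1.02 to 1.35) together with PSRC1 (0.93). PTTG1 (securin) and UBE2S, both tied to the anaphase-promoting complex, changed more in SurvNESmut-GFP, by -0.63 in Surv-GFP against -1.13 and by -0.47 against -0.88, and the test of the difference gave an adjusted p of 0.000697 and 0.0228. SKA1, of the kinetochore, was the only member that rose alike, by 0.25 and 0.32.

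**Figure D4:**
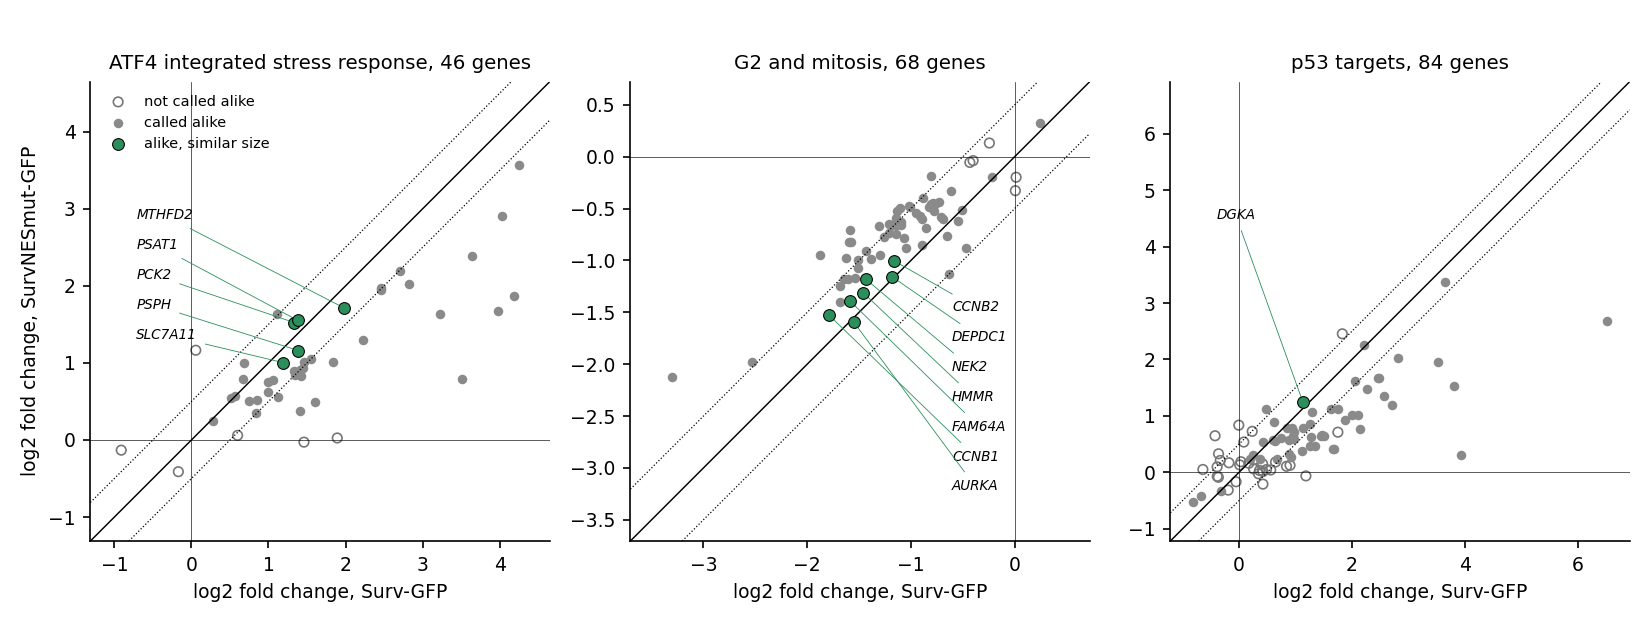
Log2 fold change of TMZ over untreated in Surv-GFP (x axis) and SurvNESmut-GFP (y axis) for the tested genes of 3 lists; green points are genes alike and of similar size, grey points moved alike, open points did not. The solid line is equal change and the dotted lines a difference of 0.5; in the first list most points lie below the solid line and in the second most lie above it, which in both is the larger change in Surv-GFP.

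Of 84 tested p53 targets, 59 rose and 3 fell with clone as covariate, against 20% and 19.6% of all tested genes. Of the 84, 50 (59.5%, against 11.7% of all tested genes) rose alike. The median of the list was 0.89 for Surv-GFP and 0.55 for SurvNESmut-GFP, again as log2 fold change. Among these listed genes only DGKA was of similar size, and the difference between clones was called for 49 of the 84. The list was written from general knowledge and does not hold PIDD1, another gene of similar size, so this count covers its members only. CDKN1A, which encodes the cell cycle inhibitor p21, had 86.6 and 77.3 CPM in untreated and 908 and 975 CPM in TMZ-exposed Surv-GFP cells, and 117 and 119 CPM in untreated and 429 and 492 CPM in TMZ-exposed SurvNESmut-GFP cells. It rose in each clone with no overlap between TMZ and untreated libraries, by 3.52 and 1.96. MDM2, the ubiquitin ligase that limits p53, rose by 1.88 and 0.92, and the differences of -1.56 and -0.96 exceeded the margin in both. GDF15, a secreted stress factor, rose by 6.53 and 2.67. BTG2, an antiproliferative gene, and ABCA12, a lipid transporter, were chosen after their values were seen because their folds were large and close to equal. BTG2 rose by 2.21 and 2.25, and ABCA12 by 3.65 and 3.37. Their intervals of -0.47 to 0.54 and -0.92 to 0.36 were too wide for the margin, so the rule passes over genes whose difference is measured less precisely.

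Of 59 tested genes of DNA replication and S phase, 17 fell and 2 rose with clone as covariate, against 19.6% and 20% of all tested genes. Of the 59, 14 (23.7%, against 11.9% of all tested genes) fell alike, 1 (DTL) rose alike and none was of similar size. In Surv-GFP 41 fell and 3 rose, against 4100 and 4271 of all 14201 tested genes. In SurvNESmut-GFP 15 fell and 15 rose, against 2719 and 2648 of all tested genes. Opposite directions were called for 7 (11.9%, against 3.91% of all tested genes). The list had a median of -0.34 in the Surv-GFP and 0.05 in the SurvNESmut-GFP clone (log2). MCM6, of the replicative helicase, fell with log2 fold changes of -1.10 and -0.83, and UNG, a DNA glycosylase, with -1.19 and -0.34. Of 40 tested genes of homologous recombination and the Fanconi anemia pathway, 9 (22.5%, against 11.7% of all tested genes) rose alike and 1 (FANCL) fell alike (2.5% against 11.9%). In this list 23 fell in Surv-GFP, against 4100 of all 14201 tested genes, and 18 rose in SurvNESmut-GFP, against 2648. Opposite directions were called for 6 (15%, against 3.91% of all tested genes). EXO1, the nuclease of end resection, rose by 0.45 and 0.53. Of 18 tested clustered histone genes, 12 fell with clone as covariate, against 19.6% of all tested genes. Of the 18, 7 (38.9%, against 11.9% of all tested genes) fell alike, and none was of similar size.

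Of 56 tested genes of the senescence-associated secretory phenotype, 22 rose alike (39.3%, against 11.7% of all tested genes) and 5 fell alike (8.93% against 11.9%). Opposite directions were called for 3 of them (5.36%, against 3.91% of all tested genes), and none was of similar size. IL1B, an inflammatory cytokine, rose by 2.39 and 2.23, and FGF2, a growth factor, by 0.79 and 0.92. Larger differences were seen for CXCL8 (4.77 and 0.68) and LIF (3.93 and 0.31). Of 17 tested glioma and neural lineage genes, 13 fell and 1 rose with clone as covariate, against 19.6% and 20% of all tested genes. Of the 17, 12 fell alike (70.6%, against 11.9% of all tested genes). SOX2, a stem cell transcription factor, had 88.8 and 92.6 CPM in untreated and 54.3 and 54.5 CPM in TMZ-exposed Surv-GFP cells, and 33.6 and 35.2 CPM in untreated and 19.4 and 19.7 CPM in TMZ-exposed SurvNESmut-GFP cells, with log2 fold changes of -0.74 and -0.81. The fold was below 2 in each clone, so SOX2 was not counted among the 31, although the interval of the difference was narrow (-0.27 to 0.11). S100B fell, with log2 fold changes of -1.56 and -1.28, from levels that differed between the clones, 798 and 756 CPM in untreated Surv-GFP and 41.2 and 40.1 CPM in untreated SurvNESmut-GFP.

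Of 16 markers of leukocytes, endothelium and epithelium, 12 had at most 0.542 CPM in every library, and AIF1 and CLDN5 were at 0 counts in all 8. Of the 4 tested, KRT8, KRT18 and CD68 rose alike (75%, against 11.7% of all tested genes), and VWF did not pass. The summed level of the 16 was 169 to 170.0 CPM in untreated and 324 to 332 CPM in TMZ-exposed Surv-GFP, and 158 to 164 CPM and 228 to 256 CPM in SurvNESmut-GFP. Most of each sum was KRT18 alone. Its mean was 129 CPM before and 267 CPM after TMZ for clone Surv-GFP. For the other clone the KRT18 means were 132.5 and 203 CPM. KRT8 and CD68 made up nearly all of the rest, with group means of at most 41.2 and 20.1 CPM. The part of these markers in the other results was not tested.

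The nearest genes inside the margin were ZNF813 and CBS among those that rose and LINC00461 and TBX2 among those that fell. Their nearest interval ends were -0.49, -0.48, 0.49 and -0.48, in this order. The nearest outside were C4orf32 and MATN1-AS1, with ends at -0.52 and 0.54, and FZD7 and SNAI1, with ends at 0.52 and 0.53. SNAI1, a repressor of epithelial genes, changed by -1.43 and -1.17, and FZD7, a Wnt receptor, by -1.57 and -1.38.

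Whether the libraries were stranded is not stated in the sources used here. In the reference annotation (GENCODE v29), exons of 18 of the 31 genes overlap exons of another gene, which for 5 of them (MTHFD2, PIDD1, SLC6A9, UHRF1BP1 and KCTD21-AS1) is itself tested under the same symbol, so their counts may hold reads of the neighbour. With 1 library left out, the count of genes that fell by similar size moved by over 1.5 times in 4 cases. It was 8 without Surv-GFP untreated library a or TMZ library a, 9 without SurvNESmut-GFP untreated library b, and 29 without SurvNESmut-GFP TMZ library b.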

How the data were processed

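Total RNA of the 8 libraries was sequenced by the authors, and they deposited unnormalized counts, as whole numbers by gene symbol, for 26364 symbols and 2 rows that name no gene. These 2 rows (reads on no gene, 11.2% to 14.3% of a library, and ambiguous reads, 1.19% to 1.28%) were dropped. The submitters' processing notes name STAR 2.5.0b, Cufflinks 2.2.1 and edgeR. The sources used here do not give the genome build, annotation or counting program. The 5 comparison tables that the authors deposited hold F scores, p-values, log2 fold changes and mean log2 CPM, and were not used.

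Libraries were grouped by their labels. The fits used edgeR 4.0.16 and limma 3.58.1 in R 4.3.3 (quasi-likelihood test, TMM, filter on low counts by group), which left 14201 of 19501 symbols with a count. The model of clone and TMZ gave the effect over both clones. A model of the 4 group means gave each clone's effect, their difference and its 95% interval. P-values were Benjamini-Hochberg adjusted over all tested genes at 0.05. CPM values use TMM-scaled library sizes.

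The members, the 18 gene lists (written from general knowledge), the motifs and the rules were chosen with earlier results of these data known. Genes were named by the size of their change among those of similar size, by list, by nearness to the margin, and, as contrast, by the largest difference between clones in each list, beside CDKN1A, MDM2 and BIRC5. The alternatives were DESeq2 1.42.0, its size factors, no filter, a filter of 1 CPM in 2 libraries, the quasi-likelihood method of edgeR 4, a replicate block, each library left out, the mean of the within-clone effects, and other margins. The scripts were tested on simulated data. The letters did not pair the libraries (correlations of deviations from -0.12 to 0.11). Single values of some list members are not reported here.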

Additional observations from a re-analysis of the deposited data

Results flagged for a closer look

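Because the genes described here were chosen for similar size, the named genes whose TMZ effect differed between the clones are given as the contrast. The difference, the log2 fold change in SurvNESmut-GFP minus that in Surv-GFP, passed an adjusted p of 0.05 in edgeR's quasi-likelihood test for 38 named genes, and was negative for 24 and positive for 14.

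Among the 31 genes of similar size, 6 differed in this test although their intervals lay within the margin, namely CBS (-0.28), MTHFD2 (-0.27), TSPAN11 (-0.25), PSPH (-0.23), NEK2 (0.26) and CCNB1 (0.27). In these 6 genes the change was larger in Surv-GFP, so their effects were similar in size but not equal.

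The other negative differences were those of NR4A3 (-5.80), IL11 (-5.23), CXCL8 (-4.08), GDF15 (-3.85), LIF (-3.61), ELN (-2.76), PPP1R15A (-2.72), NR4A2 (-2.54), DUSP10 (-2.42) and TRIB3 (-2.32). Smaller ones were those of DUSP8 (-1.92), SQSTM1 (-1.65), CDKN1A (-1.56), BIRC5 (-1.48), GABARAPL1 (-1.47), STARD4 (-0.998), MDM2 (-0.96), CYP51A1 (-0.89), RPS27A (-0.48) and KRT18 (-0.43). In NR4A3, NR4A2, IL11, SQSTM1, BIRC5, GABARAPL1, STARD4, CYP51A1 and RPS27A the fitted effects of the clones were on opposite sides of 0 or that of SurvNESmut-GFP was near 0.

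The other positive differences were those of RPL36A (0.63), RAD51D (0.78), XRCC2 (0.80), PRIM1 (0.83), UNG (0.86), PSRC1 (0.93), ABCC2 (1.04), PCDH18 (1.15), KIF20A (1.18), FAT4 (1.58), GBP1 (1.64) and SLC1A3 (3.82). They include the mitotic genes KIF20A and PSRC1 and the uracil glycosylase UNG, which fell alike but further in Surv-GFP, and SLC1A3, a glutamate transporter that fell in Surv-GFP and rose in SurvNESmut-GFP.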

How the results depend on the processing

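Of the 31 genes of similar size, 18 to 31 were found again in each of 14 refits (other normalization, filters and tools, the replicate block, or 1 library left out), and 14 were found in all of them (ARL6IP1, AURKA, BAMBI, DEPDC1, DGKA, FAM83D, GPT2, MAPKBP1, PCK2, PIDD1, PSAT1, PSPH, SLC6A9 and UHRF1BP1). LINC00461 was found in 1 refit, and YPEL2 and NEURL1B in 5. The TMZ effect over both clones of the 27 named ones kept its direction and its call in all 405 comparisons run. The set changed with the margin and the limit on size, with 2 higher and 2 lower genes at a margin of 0.25, 57 and 55 at a margin of 1, 132 and 135 with at least 0.5 on the log2 scale in each clone, and 65 and 81 when the difference was within 0.5 without its interval.
Leaving out 1 library gave 12 to 21 higher and 8 to 29 lower genes of similar size, 1248 to 1795 and 1272 to 1733 genes that moved alike, and 1921 to 2876 and 1954 to 2685 genes over both clones. The mean of the within-clone effects called 4276 genes higher, since it does not take the difference between clones as spread. With the replicate block 2344 and 2352 genes were called over both clones, and 16 and 14 were of similar size. The letters were taken to share no more than a name, and the block changed none of these counts by over 1.5 times.
Effects over both clones turned direction for some of the genes named as contrast. With 1 library left out the range was -0.13 to 0.27 for BIRC5, -0.052 to 0.24 for CYP51A1, -0.40 to 0.0064 for GABARAPL1, -0.22 to 0.61 for NR4A2, -0.11 to 1.54 for NR4A3, -0.11 to 0.13 for PRIM1, -0.12 to 0.092 for RAD51D, -0.077 to 0.074 for RPS27A, -0.43 to 0.79 for SLC1A3, -0.019 to 0.33 for STARD4 and -0.19 to 0.052 for XRCC2. RAD51D stood at -0.0062 with DESeq2's size factors, -0.0053 without a filter, -0.011 with a filter of 1 CPM and with DESeq2, and -0.0047 by the mean of the within-clone effects. SLC1A3 stood at -0.011 with DESeq2 and -0.0086 by that mean, by which OAS2 was 0.85 and POSTN 0.88. In SurvNESmut-GFP, OAS2 had 0 and 0 CPM without and 0 and 0.063 CPM with TMZ, fitted as 2.41. In Surv-GFP, POSTN had 0 and 0 CPM without and 0 and 0.057 CPM with TMZ, fitted as 2.30. Their means by clone thus rest on values near 0. The cause of these turns was not tested.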

Other observations

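Of all tested genes, 11.7% rose alike and 11.9% fell alike, and the shares of the other lists are read beside these. Of 24 tested genes of cholesterol synthesis, 6 (25%) fell alike and none rose. Of 26 AP-1 and immediate early genes, 8 (30.8%) rose and 1 (JUNB) fell alike. Opposite directions were called for 4 of the 26 (15.4%, against 3.91% of all tested genes). JUN had log2 fold changes of 0.60 (Surv-GFP) and 0.54 (the SurvNESmut-GFP clone). KLF4, a transcription factor of growth arrest, rose by 2.70 and 1.34. Of 20 genes of MAPK feedback, 6 (30%) rose and 5 (25%) fell alike. SPRY4, an inhibitor of the pathway, fell with -1.30 and -1.51, while the phosphatase DUSP5 rose by 3.08 and 1.55.

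Of 50 tested interferon-stimulated genes, 4 (8%) rose and 6 (12%) fell alike, shares close to those of all tested genes. Of 29 NRF2 targets, 6 (20.7%) rose and 5 (17.2%) fell alike, SLC7A11 being the only one of similar size. Of 41 genes of lysosome and autophagy, 2 (4.88%) rose and 4 (9.76%) fell alike, and of 75 ribosomal protein genes 7 (9.33%) and 3 (4%). Of 39 genes of collagens and matrix, 4 (10.3%) rose and 9 (23.1%) fell alike, and of 28 cadherins and protocadherins 4 (14.3%) and 7 (25%). The protocadherin PCDH10 fell with -1.06 and -1.43. None of these lists but that of NRF2 targets held a gene of similar size.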
